A study of Homo sapiens with 6 samples.

Results

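ALDH3A1 and the core genes of the aryl hydrocarbon receptor (AHR) pathway were examined in BxPC-3, an established human pancreatic cancer cell line, after transfection of the microRNA miR-4711-5p. The 7 genes were ALDH3A1, AHR, ARNT, AHRR, TIPARP, CYP1A1 and CYP1B1, and they were 7 of the 26255 gene symbols measured in each library. They were picked by symbol with the expression levels of the same libraries already known, in all 3 comparisons, so their own levels are given as a description without a test. The RNA-seq experiment had 3 groups of 2 libraries each. Parent cells received no treatment, NC-1 cells received a negative control RNA, and miR-4711-5p cells received the microRNA. RNA was taken 36 h after transfection. All libraries came from the same cell line, and whether the 2 libraries of a group came from separate cultures is not stated, so the p-values below measure the spread between these libraries, which may be technical. The study names 2 negative control RNAs, and which of them was NC-1 is not given in the sources used here. The comparison with NC-1 addresses what the microRNA changes beyond transfection of an RNA, and the comparison of NC-1 with Parent shows how far the control treatment itself moved these genes.

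AHR is a transcription factor of the bHLH-PAS family that waits in the cytoplasm, bound to the chaperone HSP90, until a small molecule such as a dioxin, a polycyclic aromatic hydrocarbon or a tryptophan metabolite binds it. It then enters the nucleus, pairs with ARNT and binds xenobiotic response elements, whose core reads GCGTG, at genes that include CYP1A1 and CYP1B1. AHRR and TIPARP are themselves induced by the receptor and restrain it. ALDH3A1, a dehydrogenase of aromatic and medium-chain aldehydes, belongs to the same battery of xenobiotic-responsive genes, and aldehyde dehydrogenase activity is used as a marker of stem-like cells in pancreatic cancer.

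A microRNA pairs with messenger RNAs mainly through its seed, bases 2 to 8 from the 5′ end. The mature sequence of miR-4711-5p is printed because every site described below is a match to its seed, which is in capitals.
miR-4711-5p: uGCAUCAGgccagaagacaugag
Its 23 bases lie at chr1:60198941-60198963 on the minus strand of GRCh37, inside the gene FGGY. Sites were searched as CTGATGCA (8mer), CTGATGC (7mer-m8) and TGATGCA (7mer-A1) in the annotated coding transcripts of the 7 genes. Among the 11184 tested genes with a matched transcript, 2057 (18.4%) held such a site in their longest 3′ UTR.

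Expression was given as FPKM, fragments per exon length and library size, which is a level per length and can be compared between genes. The FPKM of a library summed to 550772 and 543074 in Parent, 515688 and 515348 in NC-1 and 493145 and 499659 in miR-4711-5p libraries. These sums did not overlap between groups, and their part in the small differences below was not tested. Between 16597 and 17305 symbols were above 0. Depth was not stated. A test with limma on log2(FPKM + 1) covered the 12040 genes whose mean over the libraries reached 1 FPKM, a filter that all 7 genes passed. Epithelial markers were present in every library, with the 6 keratin and adhesion genes summing to 5190 to 6250 FPKM. Within this list CDH1, the epithelial cadherin, was at 114 and 116.5 FPKM in Parent, 109 and 109.6 FPKM in NC-1 and 28.3 and 30.86 FPKM in miR-4711-5p libraries, and fell 3.899-fold against Parent (limma adjusted p = 2.81e-06) and 3.70-fold against NC-1 (adjusted p = 3.18e-06). KRT19 fell 1.81-fold against Parent (adjusted p = 2.58e-05) and 1.41-fold against NC-1 (adjusted p = 0.000337), while KRT18 rose 1.14-fold and 1.25-fold (adjusted p = 0.0138 and 0.00172). Against NC-1, EPCAM rose 1.18-fold (limma adjusted p = 0.00424) and KRT8 1.19-fold (adjusted p = 0.0104), and KRT7 fell 1.125-fold (adjusted p = 0.0224). None of these last was called against Parent (adjusted p = 0.0801, 0.233 and 0.144). CDH1, KRT19 and KRT7 were lowest in the miR-4711-5p libraries, as ALDH3A1 was, whereas KRT8, KRT18 and EPCAM were not. The part of any of these in the level of ALDH3A1 was not tested. The 4 blood cell markers summed to at most 0.257 FPKM, the 4 fibroblast markers to at most 2.44 and the 3 hepatocyte markers to at most 0.583. The 3 endothelial markers summed to 1.33 to 1.39 FPKM in Parent, 3.23 to 3.53 in NC-1 and 0.649 to 0.775 in miR-4711-5p libraries. CDH5 made up most of this, at 0.995 and 0.929 FPKM in Parent, 3.16 and 2.88 in NC-1 and 0.612 and 0.469 in miR-4711-5p libraries. PECAM1 had the same order at 0.188 FPKM or less, but VWF was highest in Parent (means of 0.299, 0.190 and 0.121 FPKM). ALDH3A1 and CYP1B1 also had the order of the sum, and the part of this in any result below was not tested. In a bulk library, fewer cells that express a gene and less RNA per cell cannot be told apart.

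ALDH3A1 was the most abundant of the 7 genes in all 6 libraries, and its level was lowest with miR-4711-5p. It stood at 541 and 540.3 FPKM in the Parent libraries, 739 and 738 FPKM in the NC-1 libraries and 139.8 and 158 FPKM in the miR-4711-5p libraries. The 3 groups did not overlap, and libraries of a group lay close together. The mean was 541 ± 0.820 FPKM in Parent, 738 ± 1.19 in NC-1 and 149 ± 12.8 in miR-4711-5p cells (SD, n = 2 libraries each). The level with miR-4711-5p was thus 3.64-fold below Parent and 4.96-fold below NC-1, while NC-1 was 1.37-fold above Parent. By mean FPKM the gene held place 154 of the 26255 gene symbols in Parent, 104 in NC-1 and 492 in miR-4711-5p cells. Counted from the lowest log2 change among the 12040 tested genes, it was the 44th gene against Parent and the 29th against NC-1.

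**Figure D1:**
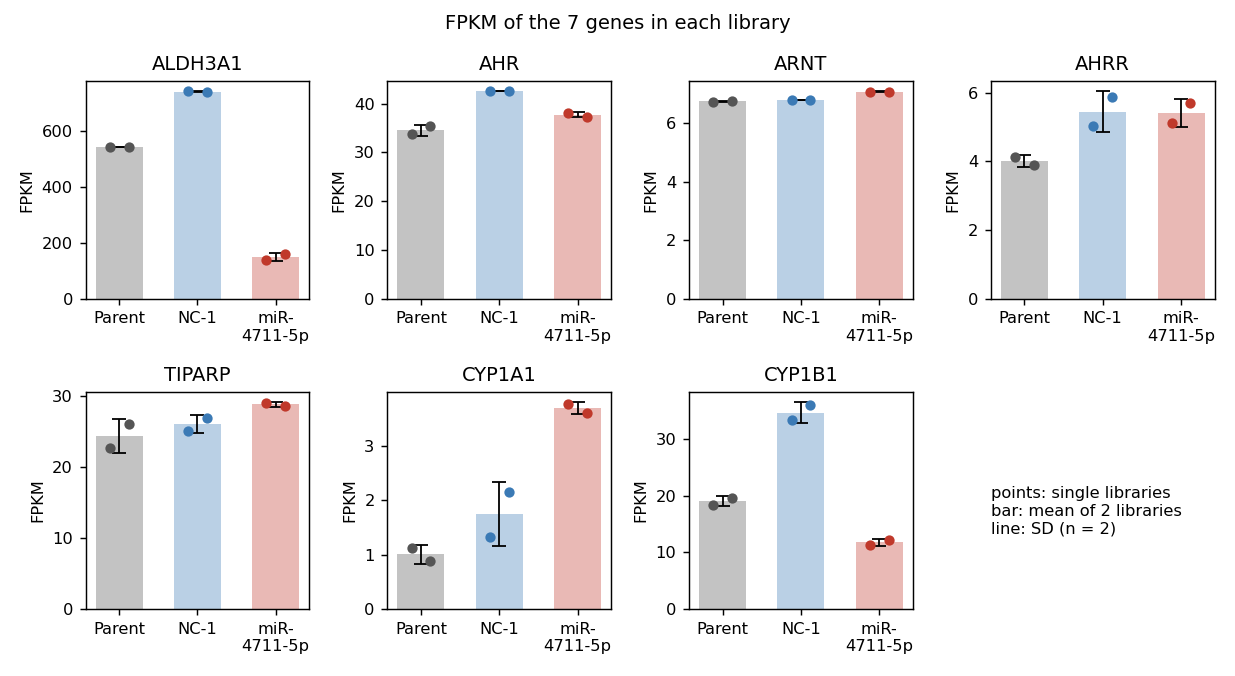
FPKM of the 7 genes (y axis, linear, each panel with its own scale from 0) in the Parent, NC-1 and miR-4711-5p groups. Points are single libraries, bars the mean of 2 libraries and lines the SD; ALDH3A1 has means of 541, 738 and 149 FPKM, CYP1B1 is lowest and CYP1A1 highest with miR-4711-5p.

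ALDH3A1 lies on the minus strand of chromosome 17, and its canonical transcript of 11 exons spans chr17:19641302-19651611 (GRCh37). None of its 5 coding transcripts held a seed site in the 3′ UTR, which is 232 bases long in the canonical transcript. A single 7mer-A1 site stood in the coding sequence of 4 of the 5 transcripts, at chr17:19642942-19642948, and it is shown with the matched bases in capitals because it is the only seed match found in the gene.
ALDH3A1 coding site: ccagtccccggTGATGCAagaggagatct
A match is a description of the letters and not evidence of binding.

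The 2 cytochrome P450 genes, both classical targets of AHR, differed in direction. CYP1B1, an enzyme that hydroxylates oestrogens and polycyclic hydrocarbons, was at 18.4 and 19.6 FPKM in Parent, 33.3 and 35.9 FPKM in NC-1 and 11.3 and 12.2 FPKM in miR-4711-5p libraries. As for ALDH3A1, the NC-1 libraries were highest, the miR-4711-5p libraries lowest, and no groups overlapped. Its level with miR-4711-5p was 1.61-fold below Parent and 2.94-fold below NC-1, and NC-1 was 1.82-fold above Parent. CYP1A1, the enzyme most often read out as a sign of receptor activity, was at 1.12 and 0.887 FPKM in Parent, 1.33 and 2.16 FPKM in NC-1 and 3.76 and 3.602 FPKM in miR-4711-5p libraries. Here the miR-4711-5p libraries were highest and the Parent libraries lowest, again without overlap, although the NC-1 libraries lay far apart. The miR-4711-5p mean was 3.66-fold that of Parent and 2.11-fold that of NC-1. The FPKM of CYP1B1 was 16.4 and 22.1 times that of CYP1A1 in Parent, 25.0 and 16.6 times in NC-1, and 3.01 and 3.38 times in miR-4711-5p libraries. CYP1A1 was at most at 3.76 FPKM in any library. By mean FPKM it held place 11867 of the 26255 gene symbols in Parent and 9711 with miR-4711-5p.

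The size of the CYP1A1 differences that involve NC-1 depended on single NC-1 libraries. The log2 difference between miR-4711-5p and Parent in mean FPKM, 1.87, ran from 1.71 without Parent library 2 to 2.05 without Parent library 1. It was 1.225 as a difference of mean log2(FPKM + 1). On the log2 scale the NC-1 against Parent difference in mean FPKM was 0.79 and ran from 0.41 without NC-1 library 2 to 1.10 without NC-1 library 1, and the difference between miR-4711-5p and NC-1, 1.08, ran from 0.77 without NC-1 library 1 to 1.47 without NC-1 library 2. Neither P450 gene held a seed site in a 3′ UTR, of 947 bases for CYP1A1 and 3213 bases for CYP1B1. CYP1A1 lies at chr15:75011883-75017877 and CYP1B1 at chr2:38294116-38337044 (GRCh37), both on the minus strand. CYP1B1 is overlapped on the opposite strand by CYP1B1-AS1, which reached at most 0.258 FPKM. Whether strand was used in counting is not given in the sources used here.

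The receptor and its partner differed far less between groups than the target enzymes. AHR was at 33.7 and 35.4 FPKM in Parent, 42.5 and 42.5 FPKM in NC-1 and 38.1 and 37.3 FPKM in miR-4711-5p libraries. The miR-4711-5p libraries lay between the Parent and NC-1 libraries, and no groups overlapped. Their mean was 1.09-fold of the Parent mean and 0.887 of the NC-1 mean. ARNT, which pairs with AHR and with the hypoxia factors, was at 6.73 and 6.76 FPKM in Parent, 6.81 and 6.80 FPKM in NC-1 and 7.06 and 7.09 FPKM in miR-4711-5p libraries. The 3 groups did not overlap, but their means were within a factor of 1.05. The FPKM of AHR was between 5.00 and 6.25 times that of ARNT in all 6 libraries, whereas the ratio of ALDH3A1 to AHR was 15.3 to 17.4 in the 4 control libraries and 3.67 and 4.23 in the miR-4711-5p libraries.

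AHR, at chr7:16955983-17385776 on the plus strand, was the only 1 of the 7 genes with seed matches in both the coding sequence and the 3′ UTR of its canonical transcript. Both are shown with the 7mer-A1 match in capitals. The first lies in the coding sequence (chr7:17378828-17378834) and the second in the 3′ UTR of 3083 bases (chr7:17382796-17382802).
AHR coding site: cctggctgccaTGATGCAacaagatgagt
AHR 3′ UTR site: catggaggcatTGATGCAtgctattcaca
ARNT, at chr1:150782189-150849184 on the minus strand, held no site in its 3′ UTR of 2308 bases.

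The feedback genes were highest outside the Parent group. AHRR, the repressor that competes with AHR for ARNT, was at 4.13 and 3.89 FPKM in Parent, 5.02 and 5.87 FPKM in NC-1 and 5.13 and 5.71 FPKM in miR-4711-5p libraries. The NC-1 and miR-4711-5p libraries overlapped and both groups were above Parent, by 1.36-fold and 1.35-fold. TIPARP, a mono-ADP-ribosyltransferase that modifies AHR, was at 22.6 and 26.1 FPKM in Parent, 25.1 and 26.9 FPKM in NC-1 and 29.0 and 28.6 FPKM in miR-4711-5p libraries. Parent and NC-1 libraries overlapped, and the miR-4711-5p libraries were above both, with a mean 1.18-fold of Parent and 1.11-fold of NC-1.

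AHRR, at chr5:321829-438406 on the plus strand, held a 7mer-m8 site at chr5:436852-436858 in the 3′ UTR of its canonical transcript, and 4 of its 5 coding transcripts held a site in some 3′ UTR.
AHRR 3′ UTR site: ctctcccttatCTGATGCctaaagtcacg
AHRR shares exons with the readthrough gene PDCD6-AHRR, so its value is uncertain. TIPARP, at chr3:156391024-156424559 on the plus strand, held no site in its 3′ UTR of 1639 bases.

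Across the 7 genes, both miR-4711-5p libraries lay outside the range of the 4 control libraries for 5 genes, above it for ARNT, TIPARP and CYP1A1 and below it for ALDH3A1 and CYP1B1. The same held for 50.1% of the 12040 tested genes, and because the 7 genes were chosen with these values known, nothing is read from the count. By level the order was ALDH3A1, AHR, TIPARP, CYP1B1, ARNT, AHRR and CYP1A1 in the Parent and the miR-4711-5p group, and CYP1B1 stood above TIPARP in the NC-1 group. Within each group the libraries of neighbours in this order did not overlap.

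**Figure D2:**
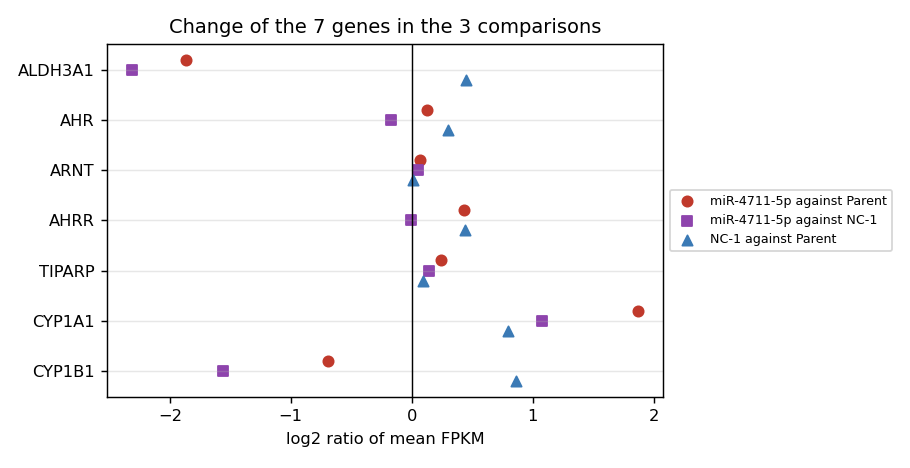
Log2 ratio of mean FPKM (x axis) for each of the 7 genes (y axis) in 3 comparisons that share libraries, miR-4711-5p against Parent (circles), miR-4711-5p against NC-1 (squares) and NC-1 against Parent (triangles). ALDH3A1 and CYP1B1 lie left of 0 in both miR-4711-5p comparisons, CYP1A1 right of 0, and AHR, ARNT, AHRR and TIPARP stay within 0.45 of 0.

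Promoter sequence was available for 5 of the 7 genes in the RefSeq table used (GRCh38.p14), which gives 250 bases before to 50 bases after each start, and was matched to GRCh37 positions. GCGTG on either strand stood in 36.5% of the 35116 promoters of the table, and the longer form TNGCGTG in 5.51%. The promoters of CYP1A1, the enzyme gene that was higher with miR-4711-5p, and of AHRR, the only member with TNGCGTG in this window, are shown with the core in capitals.
CYP1A1 promoter (chr15:75017820-75018119, minus strand): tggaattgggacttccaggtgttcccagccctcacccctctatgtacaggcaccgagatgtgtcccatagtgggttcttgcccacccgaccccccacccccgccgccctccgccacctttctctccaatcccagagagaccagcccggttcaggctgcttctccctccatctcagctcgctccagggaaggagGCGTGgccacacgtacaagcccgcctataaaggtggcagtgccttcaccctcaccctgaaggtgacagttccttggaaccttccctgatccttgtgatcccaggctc
AHRR promoter (chr5:321579-321878, plus strand): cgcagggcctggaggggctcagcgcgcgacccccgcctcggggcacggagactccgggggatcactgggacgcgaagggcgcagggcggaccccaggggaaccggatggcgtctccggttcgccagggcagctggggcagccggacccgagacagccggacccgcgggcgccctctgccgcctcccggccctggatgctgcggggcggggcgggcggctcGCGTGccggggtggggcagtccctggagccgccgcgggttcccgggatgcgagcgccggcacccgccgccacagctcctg
The core stood 57 bases before the start in CYP1A1 and 30 bases before it in AHRR, whose second promoter held 2 cores. AHR held 1 core 37 bases after its start, the first of 3 TIPARP promoters held 2, and the ARNT promoter held none. No match says only that these letters are not in this window. ALDH3A1 and CYP1B1 were not in the table.

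The wider pathway was followed in 5 lists of 67 genes besides the 7, of which 48 passed the filter. The lists were chosen with earlier results of these data known. Their shares beside those over all genes may therefore reflect that choice and are given as a description. The adjusted p-values of list genes below carry the same limit. In miR-4711-5p cells against Parent, 7 of the 48 were higher and 18 lower at a limma adjusted p under 0.05, 52.1% in all, beside 43.4% of the 12040 genes (18.7% higher and 24.7% lower). Against NC-1, 6 were higher and 25 lower, 64.6% in all, beside 39.6% (18.4% higher and 21.2% lower). NC-1 against Parent gave 11 higher and 6 lower, 35.4% in all, beside 27.2% (12.1% higher and 15.1% lower). The median log2 change of the 48 genes was -0.07, -0.20 and 0.00 in the 3 comparisons, and that of all genes tested was -0.01, 0.00 and -0.01. The comparisons share libraries and are not independent of each other. Without miR-4711-5p library 1 the lists gave 16 calls against Parent in place of 25, and 19 against NC-1 in place of 31. Without miR-4711-5p library 2 they gave 17 against NC-1, and without Parent library 1 or NC-1 library 2 they gave 9 or 10 for NC-1 against Parent in place of 17.

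**Figure D3:**
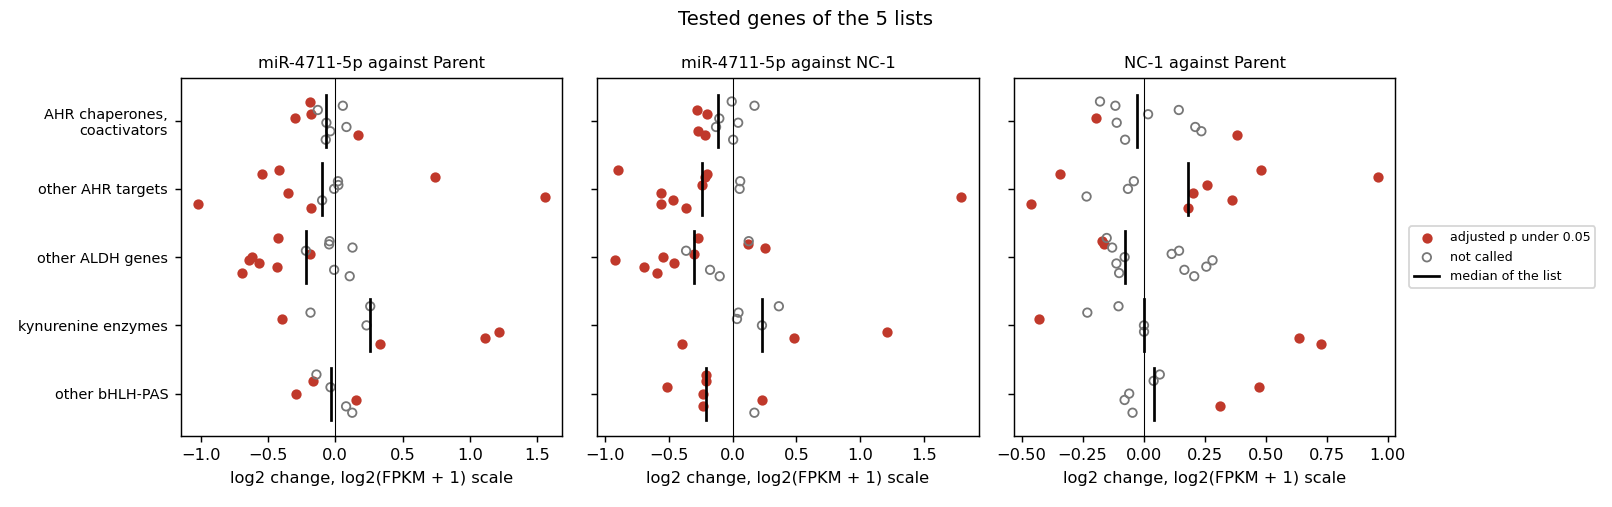
Log2 change on the log2(FPKM + 1) scale (x axis) of each tested gene in the 5 lists (y axis) in the 3 comparisons. Filled points passed the limma test at an adjusted p under 0.05 and black bars mark list medians; most called points lie left of 0 in the miR-4711-5p comparisons, with PTGS2 and IDO1 among those on the right.

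Other genes known as AHR targets in some cells were mostly lower with miR-4711-5p where they passed the test. Of 14 such genes 11 were tested, and 2 rose and 5 fell against Parent (median log2 change -0.10), 1 rose and 8 fell against NC-1 (-0.24), and 6 rose and 2 fell in NC-1 against Parent (0.18). The shares called were 63.6%, 81.8% and 72.7%, beside 43.4%, 39.6% and 27.2% of all genes tested. NQO1, a quinone reductase that AHR and NRF2 both induce, was at 131 and 139 FPKM in Parent, 152 and 158 FPKM in NC-1 and 103 and 107 FPKM in miR-4711-5p libraries. It fell 1.28-fold against Parent (limma adjusted p = 0.00116) and 1.47-fold against NC-1 (adjusted p = 0.000176). UGT1A6, which conjugates phenols, was at 106 and 101 FPKM in Parent, 119 and 116 FPKM in NC-1 and 89.0 and 93.7 FPKM in miR-4711-5p libraries. Like ALDH3A1 and CYP1B1, both genes were highest in the NC-1 and lowest in the miR-4711-5p libraries, without overlap. UGT1A6 fell 1.29-fold against NC-1 (adjusted p = 0.00116) and 1.14-fold against Parent (adjusted p = 0.0198). UGT1A6 shares exons with the other UGT1A genes, so its level is uncertain.

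PTGS2, the inducible cyclooxygenase, went the other way. It was at 21.3 and 24.1 FPKM in Parent, 18.0 and 20.3 FPKM in NC-1 and 68.9 and 68.0 FPKM in miR-4711-5p libraries, so that the microRNA group lay far above both controls. It rose 3.02-fold against Parent (limma adjusted p = 1.31e-05) and 3.58-fold against NC-1 (adjusted p = 9.43e-06). SLC7A5, a subunit of the transporter that carries tryptophan and kynurenine into cells, was at 115 and 108 FPKM in Parent, 79.5 and 82.4 FPKM in NC-1 and 54.6 and 54.7 FPKM in miR-4711-5p libraries. It fell 2.04-fold against Parent (adjusted p = 1.04e-05) and 1.48-fold against NC-1 (adjusted p = 0.000166), and NC-1 itself was below Parent. EREG, an EGF receptor ligand, rose 1.72-fold against Parent (adjusted p = 0.000134), but it rose 2.01-fold in NC-1 against Parent as well (adjusted p = 0.00039). Against NC-1, EREG was 1.17-fold lower with miR-4711-5p (adjusted p = 0.0288), a call lost without either NC-1 library (0.0778 and 0.122) or miR-4711-5p library 2 (0.172). CYP2S1, a further P450 enzyme, fell 1.47-fold against Parent (adjusted p = 0.000495), and NC-1 was itself 1.27-fold below Parent (adjusted p = 0.00832, and 0.0553 without Parent library 1). Its fall of 1.16-fold against NC-1 (adjusted p = 0.0351) was lost without NC-1 library 2 (0.128) or either miR-4711-5p library (0.116 and 0.154). CYP1A2, the third member of the CYP1 family, reached at most 0.0341 FPKM and was not tested.

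Some of these calls rested on single libraries. The UGT1A6 call against Parent was lost without Parent library 1 (adjusted p = 0.0948) or miR-4711-5p library 1 (adjusted p = 0.13). NC-1 was above Parent for NQO1 (adjusted p = 0.0219) and UGT1A6 (adjusted p = 0.0306), but the NQO1 call was lost without Parent library 1 (0.104), NC-1 library 1 (0.0537) or NC-1 library 2 (0.0911), and the UGT1A6 call when any 1 of the 4 libraries was left out (0.0607 to 0.119).

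In both miR-4711-5p comparisons the 13 other aldehyde dehydrogenases that were tested had smaller changes than ALDH3A1. Of 18 genes 13 were tested, and none rose and 7 fell against Parent (median log2 change -0.22), 2 rose and 7 fell against NC-1 (-0.30), and none rose and 2 fell in NC-1 against Parent (-0.08). The shares called were 53.8%, 69.2% and 15.4%, beside 43.4%, 39.6% and 27.2% of all genes tested. ALDH3A2, the microsomal enzyme that oxidises long-chain fatty aldehydes, was at 32.8 and 34.3 FPKM in Parent, 31.4 and 32.02 FPKM in NC-1 and 21.7 and 21.3 FPKM in miR-4711-5p libraries. It fell 1.56-fold against Parent (limma adjusted p = 9.15e-05) and 1.48-fold against NC-1 (adjusted p = 0.000198). ALDH3B1, a membrane-bound relative, was at 7.09 and 6.03 FPKM in Parent, 8.55 and 7.81 FPKM in NC-1 and 3.91 and 3.77 FPKM in miR-4711-5p libraries. It fell 1.71-fold against Parent (adjusted p = 0.00123) and 2.13-fold against NC-1 (adjusted p = 0.000273), and its microRNA libraries lay below all 4 controls. ALDH4A1 of proline breakdown fell 1.55-fold and ALDH7A1 of lysine breakdown 1.81-fold against Parent (adjusted p = 0.000294 and 0.000634). ALDH1A3, a retinaldehyde dehydrogenase and the most abundant ALDH gene after ALDH3A1 in the controls, was at 357 and 364 FPKM in Parent, 318 and 325 FPKM in NC-1 and 344 and 354 FPKM in miR-4711-5p libraries. Its difference against Parent, a factor of 0.969, did not pass the test (adjusted p = 0.369). It was 1.09-fold higher than in NC-1 (adjusted p = 0.0468), a call lost when any 1 of the 4 libraries was left out (0.0716 to 0.215). NC-1 was 1.12-fold below Parent (adjusted p = 0.0218), a call lost without either Parent library (0.0751 and 0.0858) or NC-1 library 1 (0.0832). ALDH1A1, the isoform most used as a stem cell marker, had a mean under 1 FPKM and was not tested. It was at 1.19 and 0.953 FPKM in Parent, 1.07 and 0.841 FPKM in NC-1 and 0.825 and 0.759 FPKM in miR-4711-5p libraries. The miR-4711-5p libraries were thus lowest, though close to NC-1 library 2.

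The make-up of aldehyde dehydrogenase mRNA therefore differed between groups. Over the 19 ALDH genes, FPKM summed to 1081 and 1081 in Parent, 1241 and 1235 in NC-1 and 635 and 665 in miR-4711-5p libraries. Without ALDH3A1 the sums were 540.0 and 540.5 FPKM, 502 and 498 FPKM, and 495 and 507 FPKM, so that the NC-1 and miR-4711-5p libraries overlapped. ALDH3A1 made up 50.07 and 49.99% of the sum in Parent, 59.6 and 59.7% in NC-1 and 22.02 and 23.75% in miR-4711-5p libraries. ALDH1A3 made up 33.05 and 33.63%, 25.6 and 26.3%, and 54.2 and 53.3%, and was thus the leading ALDH transcript only with miR-4711-5p.

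**Figure D4:**
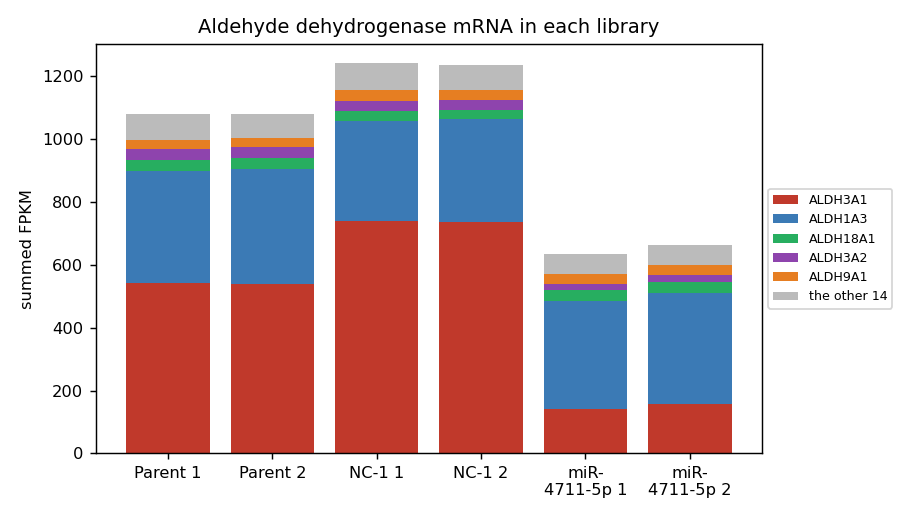
Summed FPKM of the 19 ALDH genes (y axis) in each of the 6 libraries (x axis), stacked by gene with the 5 most abundant named. The ALDH3A1 part is 541 and 540.3 FPKM in Parent, 739 and 738 FPKM in NC-1 and 139.8 and 158 FPKM in miR-4711-5p libraries, while the sum of all the rest stays between 495 and 540.5 FPKM.

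Enzymes that make or remove kynurenines, tryptophan metabolites that act as AHR ligands, were followed as a source of ligand. Of 12 genes 7 were tested, and 3 rose and 1 fell against Parent (median log2 change 0.26), 2 rose and 1 fell against NC-1 (0.23), and 2 rose and 1 fell in NC-1 against Parent (0.00). The shares called were 57.1%, 42.9% and 42.9%, beside 43.4%, 39.6% and 27.2% of all genes tested. IDO1, which opens the tryptophan ring, was at 1.91 and 1.43 FPKM in Parent, 2.04 and 1.34 FPKM in NC-1 and 5.30 and 5.04 FPKM in miR-4711-5p libraries. The miR-4711-5p libraries lay above all controls, which overlapped, with a rise of 3.09-fold against Parent (limma adjusted p = 0.000737) and 3.06-fold against NC-1 (adjusted p = 0.000836). IL4I1, an amino acid oxidase that makes indole ligands, was at 1.86 and 1.36 FPKM in Parent, 2.57 and 3.58 FPKM in NC-1 and 4.64 and 4.63 FPKM in miR-4711-5p libraries. It rose 2.87-fold against Parent (adjusted p = 0.000938) and 1.51-fold against NC-1 (adjusted p = 0.0347), and the latter call was lost without NC-1 library 1 (0.162) or either miR-4711-5p library (0.137 and 0.132). KYNU, which breaks kynurenine down, was at 52.4 and 58.2 FPKM in Parent, 92.8 and 91.4 FPKM in NC-1 and 68.3 and 71.6 FPKM in miR-4711-5p libraries, between the other groups as AHR was. It rose 1.26-fold against Parent (adjusted p = 0.00376) and fell 1.32-fold against NC-1 (adjusted p = 0.00212). IDO2, TDO2 and HAAO were listed at 0 in every library.

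Of the chaperones and coactivators of AHR, all 10 genes were tested. Against Parent 1 rose and 3 fell (median log2 change -0.07), against NC-1 none rose and 4 fell (-0.12), and 1 rose and 1 fell in NC-1 against Parent (-0.03). The shares called in either direction were 40%, 40% and 20%, beside 43.4%, 39.6% and 27.2% of all genes tested. Against NC-1 all calls of the list were lower, whereas 18.4% of all genes tested were higher and 21.2% lower. HSP90AB1, a cytosolic HSP90, was at 790.3 and 796 FPKM in Parent, 770.5 and 701 FPKM in NC-1 and 748 and 767.5 FPKM in miR-4711-5p libraries, with no call against Parent (adjusted p = 0.329) or NC-1 (adjusted p = 0.526). It has processed pseudogenes that can share reads. HSP90AA1, the other cytosolic HSP90, is named after its values were seen. It was at 892 and 922.5 FPKM in Parent, 797 and 788 FPKM in NC-1 and 720.3 and 755 FPKM in miR-4711-5p libraries, and fell 1.23-fold against Parent (limma adjusted p = 0.00131), with no call against NC-1 (adjusted p = 0.0859) and a fall of 1.14-fold in NC-1 against Parent (adjusted p = 0.0152). NCOA3, a steroid receptor coactivator, was a factor of 1.13 of Parent (limma adjusted p = 0.0221) and 0.856 of NC-1 (adjusted p = 0.00887), and the acetyltransferase EP300 a factor of 0.871 (adjusted p = 0.048) and 0.858 (adjusted p = 0.037). The calls of NCOA3 and EP300 against Parent were lost when any 1 of the 4 libraries was left out (adjusted p up to 0.116 and 0.203), that of EP300 against NC-1 without NC-1 library 2 or either miR-4711-5p library (up to 0.177), and that of NCOA3 against NC-1 without miR-4711-5p library 1 (0.0668).

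Of 13 other bHLH-PAS factors, the relatives that compete with AHR for partners or share its fold, 7 were tested. Against Parent 1 rose and 2 fell (median log2 change -0.04), against NC-1 1 rose and 5 fell (-0.21), and in NC-1 against Parent 2 rose and none fell (0.04). The shares called were 42.9%, 85.7% and 28.6%, beside 43.4%, 39.6% and 27.2% of all genes tested. HIF1A, the hypoxia factor that also pairs with ARNT, was at 181.5 and 190.3 FPKM in Parent, 172.5 and 179.6 FPKM in NC-1 and 202 and 213 FPKM in miR-4711-5p libraries. The miR-4711-5p libraries were highest, with a factor of 1.18 of NC-1 (limma adjusted p = 0.00788) that was lost without miR-4711-5p library 2 (0.0651), and 1.11 of Parent (adjusted p = 0.0355) that was lost when any 1 of the 4 libraries was left out (up to 0.19). EPAS1, the related hypoxia factor HIF-2 alpha, was at 51.1 and 51.7 FPKM in Parent, 47.5 and 51.3 FPKM in NC-1 and 42.3 and 41.4 FPKM in miR-4711-5p libraries, and fell 1.23-fold against Parent (adjusted p = 0.00371) and 1.18-fold against NC-1 (adjusted p = 0.0107). The EPAS1 call against NC-1 was lost without miR-4711-5p library 1 (0.0519) or 2 (0.0725). ARNTL2, a partner of the clock factors, was a factor of 0.889 of Parent (adjusted p = 0.0407) and 0.863 of NC-1 (adjusted p = 0.0193). The first of these calls was lost when any 1 of the 4 libraries was left out (up to 0.184) and the second without NC-1 library 1 or either miR-4711-5p library (up to 0.114).

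The genes whose 6-library profile was nearest to that of ALDH3A1 were found by the Euclidean distance between log2(FPKM + 1) values, each centred on its Parent mean, over genes whose mean reached 10 FPKM. In order of distance they were AKR1C3 (0.203), ADA (0.459), AKR1B10 (0.553), MMP28 (0.570) and SERPINB3 (0.582). AKR1C3, an aldo-keto reductase of steroids and prostaglandins, was at 139.9 and 155 FPKM in Parent, 197 and 205 FPKM in NC-1 and 34.99 and 38.7 FPKM in miR-4711-5p libraries. Its groups stood in the same order as those of ALDH3A1 without overlap, and reads from its near-identical AKR1C relatives may be split among them. AKR1B10, a second aldo-keto reductase, had a mean of 144 ± 8.26 FPKM in Parent, 188 ± 3.85 in NC-1 and 51.1 ± 8.28 in miR-4711-5p cells (SD, n = 2). ADA, adenosine deaminase, had a mean of 14.4 FPKM in Parent, 16.9 FPKM in NC-1 and 3.96 FPKM in miR-4711-5p cells. MMP28, a matrix metalloprotease, had a mean of 61.6 FPKM in Parent, 64.6 in NC-1 and 14.9 with miR-4711-5p. Its Parent and NC-1 libraries overlapped, unlike those of ALDH3A1. SERPINB3, a protease inhibitor of squamous epithelia, had means of 44.8, 51.1 and 14.6 FPKM, with NC-1 1.14-fold above Parent. These 5 were chosen for their likeness, so no test is given.

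**Figure D5:**
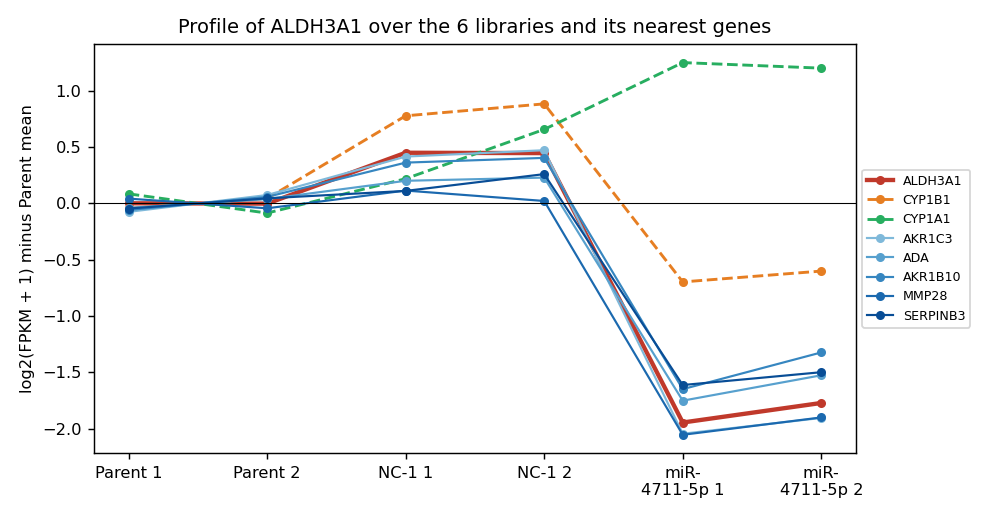
Log2(FPKM + 1) minus its Parent mean (y axis) in each of the 6 libraries (x axis) for ALDH3A1, its 5 nearest genes and, dashed, CYP1B1 and CYP1A1; lines only join the values of a gene. The 5 nearest genes lie with ALDH3A1 well below 0 in both miR-4711-5p libraries, CYP1B1 lies less far below, and CYP1A1 lies above.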

How the data were processed

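RNA-seq of BxPC-3 cells was deposited as 1 FPKM table per library, for 2 libraries in each of 3 groups taken from the sample labels. Per the labels, the authors' notes list TopHat2 2.1.1, Bowtie2 2.3.5.1, SAMtools 1.2, Cuffdiff and Cufflinks 2.2.1, while the study's methods name other versions of the aligners and Cuffnorm for FPKM. Cuffnorm can scale libraries to each other, and which scaling was used is not given in the sources used here. The authors deposited FPKM values per gene symbol, whose median-of-ratios factors were 1.006 to 1.007 in every library. FPKM give no read counts, so counting intervals were not computed. Values were analysed as log2(FPKM + 1) over the 12040 genes whose mean reached 1 FPKM, with limma 3.58.1 (R 4.3.3): all 6 libraries in 1 fit, no block, eBayes with a trend, two-sided tests and Benjamini-Hochberg adjustment over all genes tested. The script was tested on simulated data. Folds are ratios of mean FPKM. A log2 change on the log2(FPKM + 1) scale understates changes of low genes. With 2 against 2 libraries an exact permutation test cannot go below p = 0.333. The members and the 5 pathway lists were chosen with earlier results of these data known. Named list genes were the up to 4 with the largest change against Parent among those called against both controls in each list, plus NQO1, UGT1A6, CYP1A2, HSP90AB1, ALDH1A1, ALDH1A3, ALDH3A2, IDO1 and HIF1A, and the 5 genes nearest to ALDH3A1; a further named gene is not reported here. Genome positions and transcripts were read from the GRCh37 annotation, and promoters from a RefSeq table. Alternatives were another pseudocount, filters, rescaling, trend, fit, block and each library left out. Proteins were not used here.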

Additional observations from a re-analysis of the deposited data

How the results depend on the processing

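No call of the list genes named by rule changed sign under the alternatives run for them, but several counts moved. Among the 7 genes, the near-zero changes of AHRR against NC-1 and of TIPARP in NC-1 against Parent changed sign with single libraries left out (-0.115 to 0.109 and -0.003 to 0.202). Requiring a 1.5-fold change left 1112, 976 and 298 genes called for the microRNA group against Parent, the same group against NC-1, and NC-1 against Parent, in place of 5230, 4763 and 3279, and 8, 6 and 3 list genes. With no filter on low values, NC-1 against Parent gave 2165 genes. Leaving out each library in turn gave 3164 to 3990, 2815 to 3645 and 1355 to 2154 genes and 16 to 20, 17 to 27 and 9 to 13 list genes in these comparisons, and the log2 change of ALDH3A1 ran from -1.95 to -1.78, from -2.40 to -2.23 and from 0.448 to 0.451. Rescaling from genes whose mean reached 10 FPKM, chosen after seeing the data, moved the share of calls that were higher from 43.1% to 57.2% against Parent and from 44.4% to 62.4% for NC-1 against Parent, where ALDH3A1 stood at 0.507, and the list calls there to 15 higher and 4 lower. It ended 5 calls of named list genes, among them EP300, ARNTL2 and UGT1A6 against Parent. Same-numbered libraries did not deviate together (Pearson r 0.061, 0.00301 and -0.00892 across 12040 genes, which are not independent). Libraries prepared as pairs need not share a deviation, so these values cannot show whether the numbers pair them. With the replicate block 4983, 4564 and 2864 genes were called, and 22, 27 and 17 list genes, and 6 calls of named list genes were lost and 2 gained. The cause of these shifts was not tested. Depth was not stated and limits the low genes most, CYP1A1 and IDO1 among them.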
